A study of Mus musculus with 8 samples.

Results

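A set of 10 genes that govern the shape and turnover of mitochondria was followed in the left ventricle of wild-type (WT) mice and of mice with a knockout (KO) of Nbdy: Mfn1, Mfn2, Opa1, Oma1, Dnm1l, Fis1, Mff, Pink1, Bnip3 and Bnip3l. They were chosen by name, and all 10 were found among the 38293 gene identifiers of the deposited count table and passed the filter on low counts. The labels give 4 WT hearts (replicates 1 to 4) and 4 mORF4-NBDY_KO hearts (replicates 5 to 8), all from untreated male mice of 8 weeks on a C57BL/6 background. The KO allele is not described there, and no cell type is named for it. The product of Nbdy (mORF4) is a small protein known as a partner of the mRNA decapping machinery, and the comparison asks how its loss alters RNA levels in the ventricle. Each library is 1 heart, so p-values measure the spread between hearts.

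Mitochondria fuse and divide continuously. Mitofusins join the outer membranes, Opa1 joins the inner membranes, and the dynamin-related GTPase encoded by Dnm1l divides the organelle after adaptors such as Mff recruit it. Damaged mitochondria are handed to autophagy (mitophagy) either through ubiquitin marks that depend on the kinase Pink1, or through receptors on the outer membrane such as Bnip3 and Bnip3l. Cardiac muscle is densely packed with mitochondria, and deletion of both mitofusins or of Dnm1l in the mouse heart is known to cause heart failure.

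The 8 libraries held from 11101901 to 14699949 counts, and levels are given as CPM (counts relative to library size) after scaling by the trimmed mean of M-values (TMM). The Nbdy transcript (ENSMUSG00000086316, chromosome X, 153723590 to 153741920, GRCm38) stood at 19.4, 19.2, 20.1 and 19.0 CPM in the WT hearts and at 9.59, 9.58, 10.4 and 10.1 CPM in the KO hearts. It fell, with no overlap between the groups, and remained detectable in every KO heart (log2 fold change -0.97 ± 0.11 SE, adjusted p = 0.0060 by edgeR's quasi-likelihood test). Without KO replicate 6 the adjusted p was 0.056. Of the cell type marker lists, that of cardiomyocytes had the highest sum in every library. It held Myh6, Tnnt2, Actc1, Ryr2, Pln, Ttn, Mb and Tnni3. The sum ran from 66451.5 to 79019.8 CPM in WT and from 67765.8 to 79847.8 CPM in KO. Mitochondrially encoded genes took 29.2% of counts in WT replicate 1, 19.4 to 19.9% in the other WT hearts and 23.0 to 26.7% in KO. Immediate early genes summed to 662 CPM in WT replicate 1, to 1708 to 1757 CPM in the other WT hearts, and to 583 to 2152 CPM in KO. Of these 14 genes, 13 had a negative log2 fold change and 1 a positive one (median -0.32, smallest adjusted p 0.734 in edgeR). In whole tissue, fewer cells of a type and less RNA per cell cannot be told apart.

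None of the 10 genes differed between genotypes beyond the spread between hearts. The adjusted p of the 10 lay between 0.797 and 0.991 (edgeR), and 4 log2 fold changes were positive and 6 negative. Over all 13336 genes tested, 3 passed an adjusted p of 0.05, which is 0.0225% (0.0150% higher and 0.00750% lower in KO), and 0 of the 10 members did. At an unadjusted p under 0.05 the count was 0 of 10 members, against 6.40% of all genes tested. The WT and KO values overlapped for all 10, where 4.12% of all genes had groups that did not overlap (2.14% with KO higher and 1.98% with KO lower). The median log2 fold change was -0.032 for the 10 genes and -0.0032 for all genes, and the sizes of the differences were smaller in the 10 genes (median absolute value 0.064) than over all genes (0.133). The annotation (GENCODE M21, GRCm38) has all 10 as protein-coding genes. Only Mfn2 and Mff share bases with another annotated gene, each on the opposite strand, and those neighbours held 0 to 3 counts (Gm13156) and 2 to 9 counts (C430014B12Rik) in a library. The 10 genes are well counted, with a median SE of 0.12 against 0.16 over all genes. The sizes of the differences were therefore not compared at like precision.

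**Figure D1:**
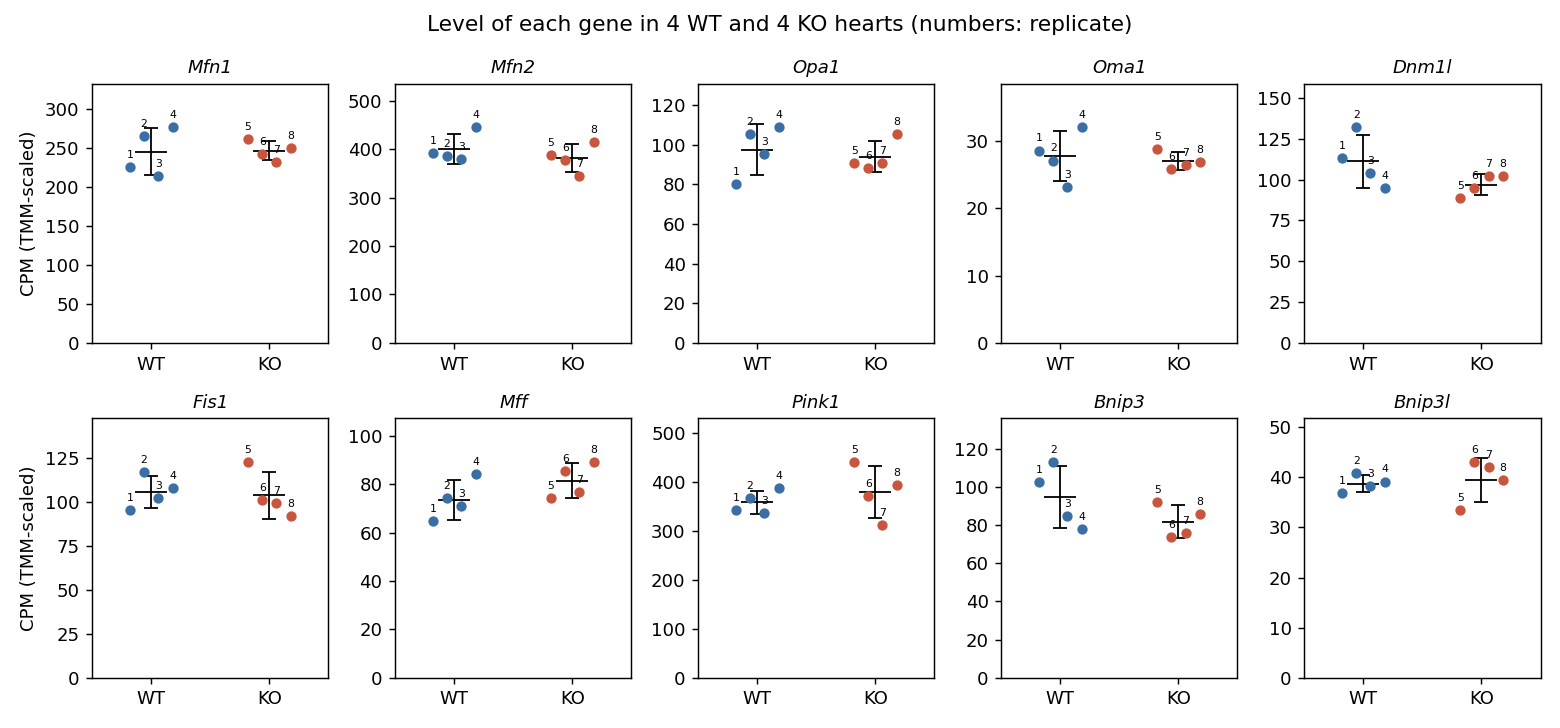
CPM of each gene (vertical axes, from 0) in 4 WT hearts (blue) and 4 KO hearts (red); points are hearts with their replicate number, and bars are the mean ± SD. The groups overlap in every panel, and the Mfn1 means were 246 CPM in WT and 247 CPM in KO.

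Neither outer-membrane fusion gene differed between genotypes beyond the spread between hearts. Mfn1 (ENSMUSG00000027668, chromosome 3, 32529465 to 32579239, plus strand) had 226, 266, 214 and 278 CPM in WT replicates 1 to 4 and 263, 243, 233 and 250.0 CPM in KO replicates 5 to 8. The KO values all fell inside the WT range, and the log2 fold change was 0.0072 ± 0.12 (SE; 95% interval -0.24 to 0.26; adjusted p = 0.991 in edgeR). Mfn2 (ENSMUSG00000029020, chromosome 4, 147873599 to 147904704, minus strand), the mitofusin that also tethers mitochondria to the endoplasmic reticulum, had 393, 386, 379 and 446 CPM in WT and 388, 378, 345 and 414 CPM in KO. WT replicate 4 was the highest heart and KO replicate 7 the lowest, while the other 6 lay between 378 and 414 CPM. The log2 fold change of Mfn2 was -0.073 ± 0.11 (95% interval -0.31 to 0.17; adjusted p = 0.925 in edgeR).

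The inner-membrane fusion gene and its protease showed the same lack of separation. Opa1 (ENSMUSG00000038084, chromosome 16, 29579334 to 29654884, plus strand), the dynamin-like GTPase of the inner membrane, had 80.3, 105, 95.1 and 109 CPM in WT and 90.9, 88.2, 90.8 and 105 CPM in KO. Among the KO hearts replicate 8 stood above the other 3, which lay within 3 CPM of each other, and the WT hearts covered a wider range than the KO hearts on both sides. Oma1 (ENSMUSG00000035069, chromosome 4, 103313812 to 103371868, plus strand), the stress-activated protease that cleaves Opa1, was the gene with the lowest counts of the 10, at 28.6, 27.1, 23.2 and 32.1 CPM in WT and 28.8, 25.8, 26.4 and 26.9 CPM in KO. Both extremes of Oma1 were WT hearts (replicates 3 and 4). The log2 fold changes were -0.055 ± 0.12 for Opa1 (95% interval -0.31 to 0.20) and -0.040 ± 0.12 for Oma1 (95% interval -0.30 to 0.22), with adjusted p of 0.953 and 0.969 in edgeR.

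Of the fission genes, Dnm1l had the second largest difference of the 10 and Fis1 one of the smallest. Dnm1l (ENSMUSG00000022789, chromosome 16, 16312230 to 16358959, minus strand) had 114, 132, 104 and 94.6 CPM in WT and 89.0, 94.7, 102 and 102 CPM in KO. WT replicates 1, 2 and 3 lay above every KO heart, and WT replicate 4 lay among the KO values. The log2 fold change was -0.20 ± 0.12 (95% interval -0.46 to 0.064; adjusted p = 0.797 in edgeR). It was -0.10 without WT replicate 2, -0.27 without WT replicate 4 and -0.096 once a trend with GC content and length was taken out.

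Neither adaptor gene passed the test. Mff (ENSMUSG00000026150, chromosome 1, 82724890 to 82752394, plus strand), an outer-membrane adaptor that recruits the Dnm1l protein, had 64.8, 74.3, 70.9 and 84.3 CPM in WT and 74.2, 85.6, 76.9 and 89.4 CPM in KO. WT replicate 1 was the lowest heart, and the log2 fold change was 0.15 ± 0.11 (95% interval -0.098 to 0.39; adjusted p = 0.822 in edgeR), the largest positive value of the 10. Fis1 (ENSMUSG00000019054, chromosome 5, 136953275 to 136966234, plus strand), a small tail-anchored protein of the outer membrane, had 95.2, 117, 102 and 108 CPM in WT and 123, 101, 99.2 and 91.9 CPM in KO. The KO hearts held both the highest and the lowest Fis1 level, and the log2 fold change was -0.023 ± 0.12 (95% interval -0.28 to 0.23; adjusted p = 0.978 in edgeR).

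Among the mitophagy genes the kinase Pink1 was abundant and variable in KO, and the receptor Bnip3 had the largest difference of the 10. Pink1 (ENSMUSG00000028756, chromosome 4, 138313409 to 138326307, minus strand), which accumulates on damaged mitochondria and phosphorylates ubiquitin there, had 342, 368, 336 and 387 CPM in WT and 441, 371, 311 and 393 CPM in KO. KO replicate 5 was the highest and KO replicate 7 the lowest of the 8, and the log2 fold change was 0.082 ± 0.12 (95% interval -0.19 to 0.35; adjusted p = 0.925 in edgeR).

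Bnip3 (ENSMUSG00000078566, chromosome 7, 138890836 to 138909519, minus strand), a hypoxia-inducible mitophagy receptor, had 103, 113, 84.5 and 78.2 CPM in WT and 91.9, 73.7, 75.9 and 85.8 CPM in KO. WT replicates 1 and 2 lay above all KO hearts, and WT replicates 3 and 4 lay within the KO range. The log2 fold change was -0.21 ± 0.13 (95% interval -0.50 to 0.080; adjusted p = 0.797 in edgeR), and it was -0.11 without WT replicate 2, -0.30 without WT replicate 4 and -0.058 once a trend with GC content and length was taken out.

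Bnip3l (ENSMUSG00000022051, chromosome 14, 66985239 to 67008877, minus strand), its homologue also called Nix, had 36.9, 40.8, 38.2 and 39.2 CPM in WT and 33.4, 43.1, 42.0 and 39.5 CPM in KO. The WT hearts varied little (SD 1.67 CPM), and KO replicate 5 was the lowest heart. The log2 fold change of Bnip3l was 0.027 ± 0.11 (95% interval -0.21 to 0.26; adjusted p = 0.974 in edgeR). An annotated pseudogene copy, Bnip3l-ps, held at most 16 counts in a library.

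**Figure D2:**
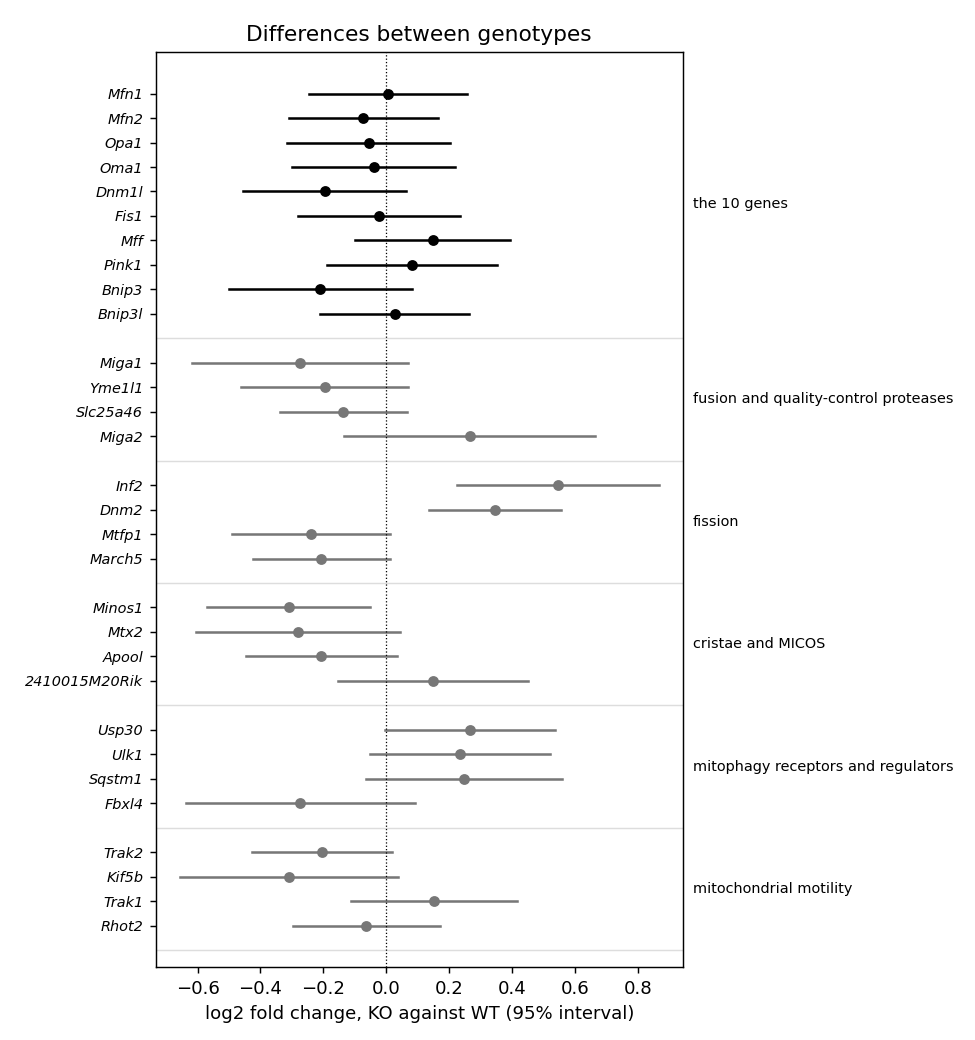
Log2 fold changes of KO against WT (horizontal axis) with 95% intervals for the 10 genes (black) and for the 4 genes of smallest p in each of 5 related lists (grey). The interval of each of the 10 genes includes 0 and stays between -0.50 and 0.39, and none of the grey genes passed over all genes.

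The intervals set the size of change these hearts leave room for. The lower bounds in fold ran from 0.707 for Bnip3 to 0.934 for Mff, and the upper bounds from 1.046 for Dnm1l to 1.31 for Mff. A larger fall than 0.707-fold or a larger rise than 1.31-fold therefore lay outside the 95% interval of each of the 10 genes, taken one at a time. Leaving out 1 heart also moved the log2 fold changes of Mfn2, Opa1, Pink1 and Mff. Mfn2 lay between -0.11 (KO replicate 8 omitted) and -0.022 (WT replicate 4 omitted), and Opa1 between -0.14 (WT replicate 1 omitted) and -0.0020 (WT replicate 4 omitted). Pink1 lay between 0.0014 (KO replicate 5 omitted) and 0.17 (KO replicate 7 omitted), and Mff between 0.092 (WT replicate 1 omitted) and 0.22 (WT replicate 4 omitted).

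Levels of different genes were compared per length, as RPKM (CPM per kilobase of the union of annotated exons), over all 8 hearts. Pink1 stood highest with 138 ± 15.1 RPKM, followed by Mfn2 with 75.3 ± 5.65, Fis1 with 61.0 ± 6.19, Mfn1 with 40.3 ± 3.53 and Bnip3 with 39.0 ± 6.09 RPKM (SD, n = 8 each). Dnm1l followed with 20.01 ± 2.62, Oma1 with 12.8 ± 1.21, Opa1 with 12.1 ± 1.28, Bnip3l with 10.1 ± 0.799 and Mff with 7.95 ± 0.850 RPKM (SD, n = 8 each). Mfn1 and Bnip3 did not differ beyond their spread, with Mfn1 above Bnip3 in 5 of 8 hearts, and neither did Oma1 and Opa1 (5 of 8). Mfn2 lay above Fis1, Opa1 above Bnip3l and Bnip3l above Mff in 8 of 8 hearts although their ranges overlapped.

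The order depends in part on the length used. With the longest annotated transcript as the length, Fis1 stood above Mfn2 (110.3 against 90.1 RPKM), and Mff moved from the tenth to the seventh place with 19.8 RPKM. Pink1 remained first.

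**Figure D3:**
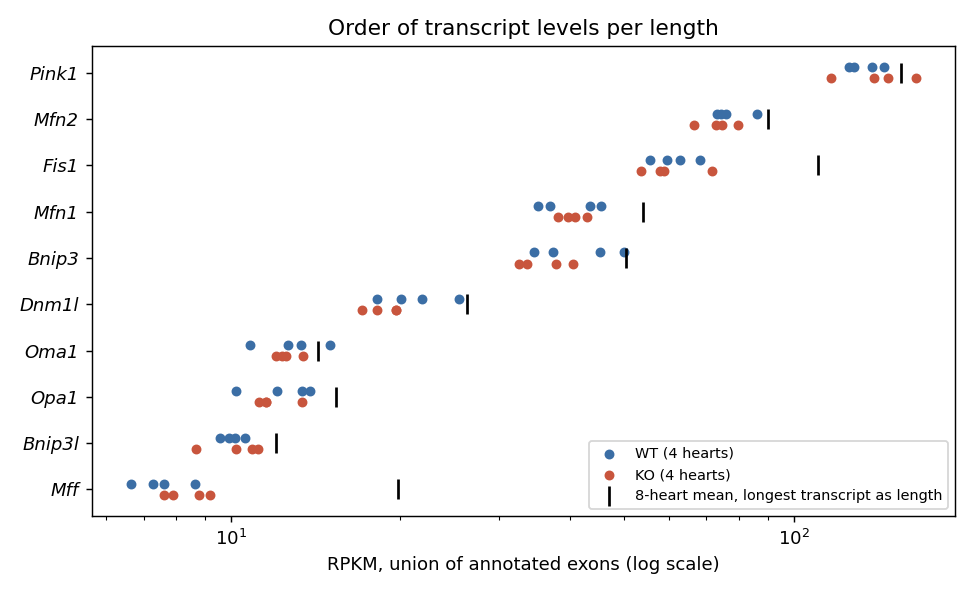
RPKM of the 10 genes on a log axis, ordered by the 8-heart mean, with 4 WT hearts in blue and 4 KO hearts in red. Black ticks give the 8-heart mean with the longest transcript as length; the ticks of Fis1 (110.3 RPKM) and Mff (19.8 RPKM) lie farthest from their points.

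Ratios of partner genes within a heart do not depend on how libraries are scaled, and 4 were compared. The WT hearts held 1.74, 1.45, 1.77 and 1.61 Mfn2 counts per Mfn1 count, and the KO hearts 1.48, 1.56, 1.48 and 1.66, all inside the WT range. For Bnip3 per Bnip3l the WT hearts held 2.79, 2.77, 2.21 and 1.996, and the KO hearts 2.75, 1.71, 1.81 and 2.17. KO replicates 6 and 7 had less Bnip3 per Bnip3l than any WT heart. For Mff per Fis1 the WT hearts held 0.680, 0.636, 0.695 and 0.784, and the KO hearts 0.604, 0.848, 0.775 and 0.973, so the KO hearts held both extremes. The mean of Oma1 per Opa1 was 0.288 ± 0.0502 (SD, n = 4) for WT hearts, against 0.289 ± 0.0257 (SD, n = 4) for KO hearts.

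None of these ratios differed by an exact two-sided permutation test over the 70 assignments of hearts, whose smallest possible p is 0.0286. The log2 differences of KO minus WT were -0.087 for Mfn2 to Mfn1 (exact p = 0.314), -0.22 for Bnip3 to Bnip3l (exact p = 0.257), 0.18 for Mff to Fis1 (exact p = 0.343) and 0.018 for Oma1 to Opa1 (exact p = 0.914). Adjusted over the 4 ratios by Benjamini-Hochberg, the exact p was 0.457 for the first 3 and 0.914 for the fourth. With 1 heart omitted, Mfn2 to Mfn1 lay between -0.14 (without WT replicate 2) and -0.050 (without WT replicate 3), Bnip3 to Bnip3l between -0.36 (without KO replicate 5) and -0.13 (without KO replicate 6), and Mff to Fis1 between 0.077 (without KO replicate 8) and 0.31 (without KO replicate 5).

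**Figure D4:**
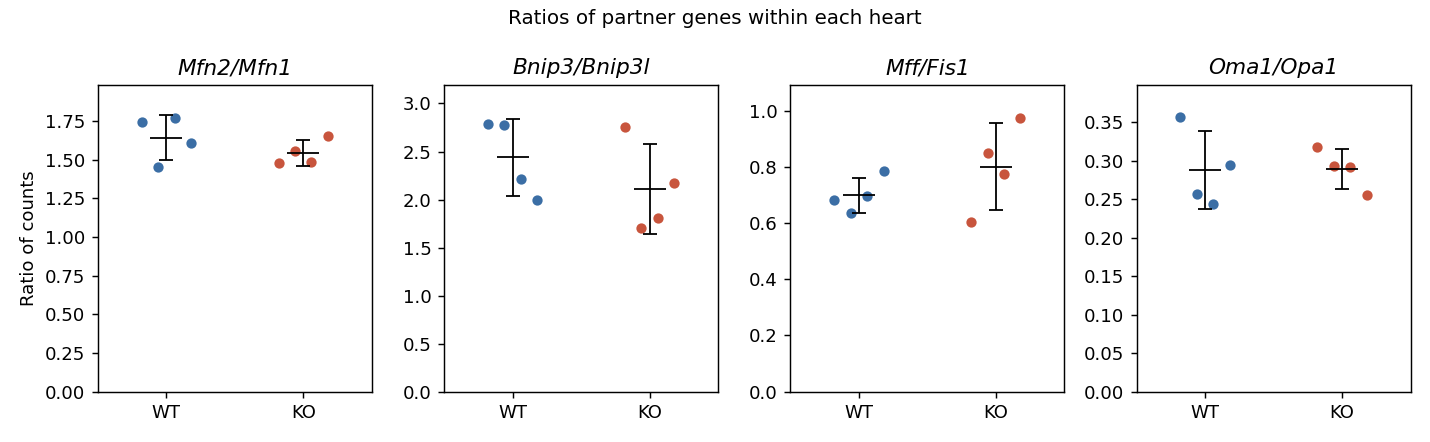
Ratio of raw counts of partner genes within each heart (vertical axes, from 0) for 4 WT hearts (blue) and 4 KO hearts (red), with mean ± SD. The Mff to Fis1 ratio runs from 0.604 to 0.973 in KO and from 0.636 to 0.784 in WT, and the Oma1 to Opa1 means are 0.288 and 0.289.

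The hearts differed from each other in which of the 10 genes were high, and these patterns crossed the genotypes. WT replicate 4 lay above the 8-heart mean of log2 CPM for 8 of the 10 genes and was the highest heart for 4 (Mfn1, Mfn2, Opa1 and Oma1), while Dnm1l and Bnip3 were below their means there by 0.13 and 0.16 on the log2 scale. WT replicate 2 lay above the mean for 7 genes and was the highest heart for Dnm1l (0.36 above the mean on the log2 scale) and Bnip3 (0.37). WT replicate 3 and KO replicate 7 each lay above the mean for 1 gene. WT replicate 1, the heart with the highest mitochondrial share of counts, was lowest for Opa1 (-0.25) and Mff (-0.25). KO replicate 5 was highest for Pink1 and Fis1 and lowest for Dnm1l and Bnip3l.

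Of the 45 pairs among the 10 genes, 30 had a positive correlation over the 8 hearts, and 0 passed after adjustment over the pairs (smallest Benjamini-Hochberg value 0.624 by an exact permutation test of Pearson's r, 0.623 for Spearman's rho). All pairs share the scaling of each library. The highest was Dnm1l with Bnip3, at r = 0.748 (exact permutation p = 0.0305 before adjustment) and rho = 0.476 (exact permutation p = 0.243). Its r was 0.887 without WT replicate 2 and KO replicate 5. The hearts left out were those farthest from the median of the first-named gene alone. In KO replicate 5 Dnm1l lay below its mean (-0.22 on the log2 scale) and Bnip3 above its mean (0.073), so a discordant heart was left out. Mfn1 with Oma1 followed at r = 0.743 (exact permutation p = 0.0307) and rho = 0.690 (exact permutation p = 0.0694). Its r was 0.090 without WT replicates 3 and 4. These were the lowest and the highest heart for Mfn1, so leaving them out narrows its range and can lower r by itself.

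**Figure D5:**
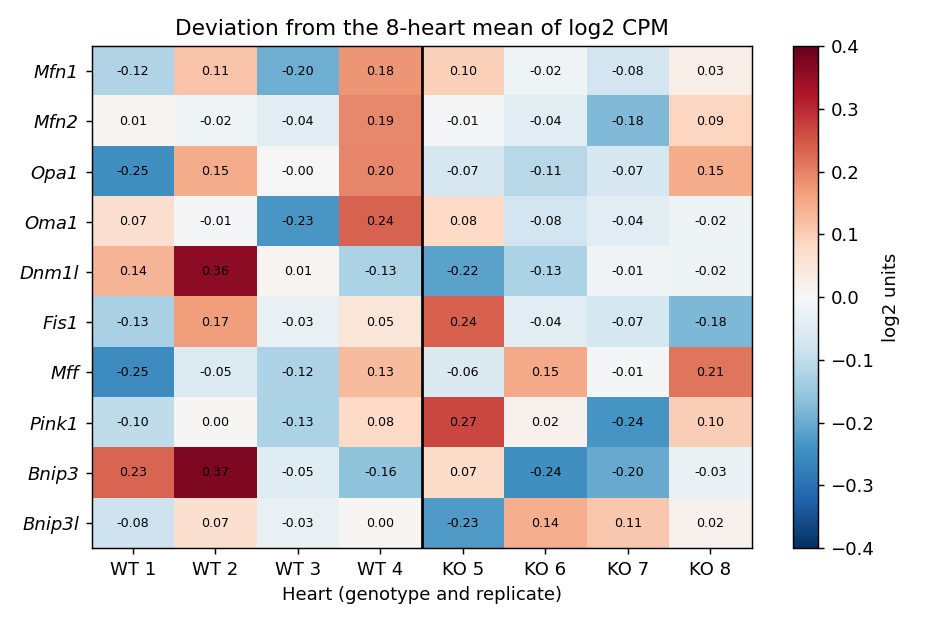
Deviation of each gene's log2 CPM from its 8-heart mean, with hearts in columns and genes in rows; the line divides WT from KO. The strongest colours lie within the WT group, at Bnip3 (0.37) and Dnm1l (0.36) in WT replicate 2, and no row is of one colour in WT and the other in KO.

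Variation between hearts of one genotype was not above the usual range of genes from 25 to 450 CPM. The pooled within-group coefficient of variation was lowest for Mfn2 (7.56%) and Bnip3l (8.44%) and highest for Bnip3 (14.6%). Over the 5196 genes with a mean of 25 to 450 CPM the median was 11.9%, with quartiles of 9.16 and 15.6%. Thus 2 of the 10 genes lay under the lower quartile and none above the upper, and Bnip3 alone lay above the median. The genes of this range were not matched to the level of each member.

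A wider list of 70 further genes of mitochondrial dynamics and mitophagy was also followed, and 0 of the 65 that could be tested passed in either direction. Their log2 fold changes were positive for 28 and negative for 37, with a median of -0.029. An unadjusted p under 0.05 was held by 4.62% of them, against 6.40% of all genes tested, and this share moved with the processing (below). The groups did not overlap for 5 of them, which were Dnm2 (higher in KO) and Minos1, March5, Pptc7 and Trak2 (lower in KO), where over all genes 2.14% did not overlap with KO higher and 1.98% with KO lower. Pptc7 lies outside the rule for named genes and was chosen after its values were seen. The other 5 listed genes, among them Gdap1, Mtfr2, Pld6 and Calcoco2, had too few counts to be tested.

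The smallest p values of the wider list belonged to Inf2 and Dnm2, which are among its 12 tested fission genes. Inf2, a formin that assembles actin on the endoplasmic reticulum where mitochondria are constricted, had 42.5, 50.6, 37.3 and 33.3 CPM in WT and 47.7, 60.2, 60.9 and 69.9 CPM in KO. KO replicate 5 alone of the KO hearts lay within the WT range, and its log2 fold change of 0.55 ± 0.15 (SE) had an adjusted p of 0.711 in edgeR. Dnm2, a dynamin better known from endocytosis that has also been linked to mitochondrial division, had 78.0, 73.5, 73.7 and 80.0 CPM in WT and 101, 102, 95.9 and 89.3 CPM in KO.

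Every KO heart lay above every WT heart for Dnm2, with a log2 fold change of 0.35 ± 0.097 (adjusted p = 0.711 in edgeR), which was 0.23 once the trend with GC content and length was taken out. Mtfp1, an inner-membrane protein that promotes fission, stood at -0.24 ± 0.12, and March5, an outer-membrane ubiquitin ligase acting on fission and fusion proteins, at -0.21 ± 0.10 (adjusted p = 0.777 each). The median of the 12 fission genes was -0.034, with 5 positive and 7 negative.

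The cristae and MICOS list includes subunits of the complex (MICOS) that shapes the inner membrane at crista junctions. Its genes had 4 positive and 7 negative values with a median of -0.025. Minos1, which encodes the MICOS subunit Mic10, had 369, 481, 423 and 355 CPM in WT and 324, 338, 315 and 337 CPM in KO. All KO hearts lay below all WT hearts, with a log2 fold change of -0.31 ± 0.12 (adjusted p = 0.734 in edgeR). Mtx2 stood at -0.28 ± 0.15, Apool at -0.21 ± 0.11 and 2410015M20Rik, which encodes the MICOS subunit Mic13, at 0.15 ± 0.14 (adjusted p from 0.783 to 0.870).

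The remaining lists were split in direction. Of 13 fusion and quality-control genes 5 were positive and 8 negative (median -0.031), with Miga1 at -0.27 ± 0.16 and its homologue Miga2 at 0.27 ± 0.18, the protease Yme1l1 at -0.20 ± 0.12 and the outer-membrane carrier Slc25a46 at -0.14 ± 0.094. Of 24 mitophagy receptors and regulators 12 were positive and 12 negative (median -0.0081), with the deubiquitinase Usp30, a brake on mitophagy, at 0.27 ± 0.12, the autophagy kinase Ulk1 at 0.23 ± 0.13, the cargo receptor Sqstm1 at 0.25 ± 0.14 and Fbxl4, which restrains Bnip3 and Bnip3l, at -0.27 ± 0.17. Of 5 motility genes 2 were positive and 3 negative (median -0.064), with the kinesin adaptors Trak2 at -0.20 ± 0.10 and Trak1 at 0.15 ± 0.12, the kinesin heavy chain Kif5b at -0.31 ± 0.16 and the outer-membrane GTPase Rhot2 at -0.064 ± 0.11. The adjusted p of these 12 genes lay between 0.777 and 0.931 (edgeR).

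Markers of other cell types were given beside these lists because a ventricle holds several cell types. The 8 cardiomyocyte markers had a median log2 fold change of -0.0096 and 0 of 8 passed. All 7 fibroblast markers were negative (median -0.21, 0 of 7 passed), and their summed level ran from 1074 to 1365 CPM in WT and from 877 to 1130.2 CPM in KO. All 5 blood markers were positive (median 0.31, 0 of 5 passed), with sums from 815 to 1782 CPM in WT and from 1146 to 2147 CPM in KO. Atrial markers summed to 264 to 481 CPM in WT and to 457 to 713 CPM in KO. Most of this was Nppa (0.59 ± 0.19 on the log2 scale, with an adjusted p of 0.711 in edgeR). The other tested atrial marker, Myl4, stood at -0.0025 ± 0.29, and Myl7 and Sln had too few counts to be tested. Of 6 macrophage markers 3 were positive and 3 negative (median -0.0091), and their sums overlapped (155 to 243 CPM in WT, 166 to 255 CPM in KO). Among them Mrc1 was below every WT heart in every KO heart (-0.42 ± 0.14 on the log2 scale, with an adjusted p of 0.711 in edgeR). The fibroblast marker Dcn was too (-0.27 ± 0.13, adjusted p = 0.777 in edgeR), where 1.98% of all genes had KO lower without overlap. Nppa, Mrc1 and Dcn were chosen after their values were seen. Of the atrial, endothelial, smooth muscle and macrophage markers 0 passed. Lymphocyte and adipocyte markers were close to 0, with sums of at most 4.98 and 15.3 CPM. The part of these shifts in the values above was not tested.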

How the data were processed

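Poly(A) RNA from 8 left ventricles was made into libraries with a stranded TruSeq kit, per the labels' protocols, and the submitters' processing notes name STAR 2.7.1a and GRCm38 (mm10). How reads were counted, with which strandedness and annotation, was not given in the sources used here. As deposited by the authors, the files hold raw whole-number counts per Ensembl gene, 1 column per heart. The labels do not say whether the hearts came from separate litters or cages. All pairs of libraries differed by more than sampling noise (chi-square over its degrees of freedom 11.1 to 57.0). WT replicate 1 stood farther from the other WT hearts (42.3 to 57.0) than from the KO hearts (12.9 to 25.5). The other WT hearts stood at 20.6 to 28.7 from each other.

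Symbols, positions and lengths came from GENCODE M21 (36345 of 38293 identifiers matched). A filter on low counts (filterByExpr, minimum 10) and TMM scaling preceded the quasi-likelihood test of edgeR 4.0.16 in R 4.3.3 (glmQLFit and glmQLFTest), which was two-sided with genotype alone in the model and used Benjamini-Hochberg adjustment over 13336 genes. SE came from the fold change and its F statistic, and 95% intervals from its degrees of freedom. The log2 ratios of partners used a prior count of 2. Correlations used log2 CPM. The method was tested on simulated data.

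The members, lists and tests were chosen with earlier results of these data known. The named genes are Nbdy, the 10 members and the 4 genes of smallest p in each of 5 lists. Alternatives were DESeq2 1.42.0 and its size factors, library totals, limma-voom (limma 3.58.1), no filter, at least 1 CPM in 4 libraries, 1 surrogate variable (sva 3.50.0), mitochondrially encoded genes left out, a trend with GC content and length taken out (natural splines, 4 degrees of freedom), an adjusted p of 0.10 and each library left out. One gene of the wider list is not reported here.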

Additional observations from a re-analysis of the deposited data

Results flagged for a closer look

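Of 92 groups of 4 hearts checked, 7 held a heart far from its neighbours by Dixon's test at the 95% level, and chance flags about 1 in 20. Of the 10 genes this was Opa1 in KO, where replicate 8 held 105.4 CPM and the other KO hearts 88.2 to 90.9 CPM. Apool was low in KO replicate 6 (32.1 CPM, against 39.3 to 40.4), Usp30 was low in KO replicate 8 (13.8 CPM, against 15.3 to 15.5) and Ulk1 was high in KO replicate 6 (98.2 CPM, against 80.8 to 81.3). WT replicate 1 had 29.2% of counts from mitochondrially encoded genes (others 19.4 to 19.9%) and 662 summed CPM of immediate early genes (others 1708 to 1757). WT replicate 2 had 15.3 summed CPM of adipocyte markers (others 0.817 to 2.53).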

How the results depend on the processing

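No paired analysis was possible because the groups share no replicate number. Over 17 alternative fits and a threshold of 0.10, 0 of the 10 genes and 0 of the wider list passed (smallest adjusted p of a member 0.631, Dnm1l without WT replicate 1). Mfn2, Dnm1l, Mff and Bnip3 kept their sign in all 17. The other 6 changed sign in at least 1. With library totals Mfn1 was -0.039 and Bnip3l -0.019, with 1 surrogate variable Opa1 was 0.0070, and with the trend in GC content and length taken out Oma1 was 0.027 and Pink1 -0.0028. Mfn2 was -0.14 and Bnip3l 0.14 with that trend taken out, beyond their values with 1 heart left out. With 1 heart left out, Mfn1 ran from -0.057 to 0.066, Oma1 from -0.12 to 0.034, Fis1 from -0.11 to 0.030, Bnip3l from -0.021 to 0.10, and the log2 difference of the Oma1 to Opa1 ratio from -0.056 to 0.12. The count of genes called over all genes was 3, and 12 with DESeq2, 10 with no filter, 5 with 1 surrogate variable, and with 1 heart left out it lay between 2 (KO replicate 6 omitted) and 6 (WT replicate 4 omitted), with 5 when WT replicate 1 was omitted. Nbdy lost its call with KO replicate 6 omitted (adjusted p = 0.056, edgeR) and kept it in the other 16 fits (0.047 or lower). Without WT replicate 4, Dnm1l and Bnip3 had an unadjusted p under 0.05 (2 of 10 members), as did 1028 of all 13517 genes tested. In the main fit 3 of 65 genes of the wider list had one, against 853 of 13336 genes. Without WT replicate 1 it was 11 of 65, against 1452 of 13542 genes, and with library totals 9 of 65, against 891 of 13336. Levels per length rose for all 10 genes with the longest transcript as length, by construction. Of the wider list, Miga1 was -0.13 without WT replicate 3, Miga2 was 0.099 with 1 surrogate variable and 0.13 without WT replicate 2, 2410015M20Rik was 0.038 without KO replicate 5, and Yme1l1 was -0.11, Slc25a46 -0.038, Ulk1 0.11, Apool -0.076, Usp30 0.18, Mtx2 -0.18 and Trak1 0.0050 with the trend in GC content and length taken out. Kif5b was -0.19 without KO replicate 5, Sqstm1 0.15 without WT replicate 3, and Rhot2 ran from -0.15 (that trend taken out) to -0.025 (without WT replicate 3). The cause of these shifts was not tested.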
